A study of Solanum lycopersicum with 6 samples.

Results

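The genes described here are 10 tomato loci of the plant response to low oxygen: the alcohol dehydrogenase gene ADH2 (Solyc06g059740), 3 pyruvate decarboxylase (PDC) genes (Solyc10g076510, Solyc02g077240 and Solyc09g005110), the lactate dehydrogenase (LDH) gene Solyc08g078850, the class 1 haemoglobin gene Solyc07g008240, and 4 ethylene response factor (ERF) genes of group VII (Solyc03g123500, Solyc06g063070, Solyc09g075420 and Solyc12g049560). They were chosen by locus identifier, with earlier results of these data known. Of the 10, 9 were found among the 34688 gene models of the count table and 8 had enough counts to be tested, while Solyc02g077240 was not analysed here. Their expression was compared between whole roots and protoplasts, the cells left when root walls are digested. The digits in the identifiers place the 9 genes on chromosomes 3, 6, 7, 8, 9, 10 and 12. The table holds no coordinates.

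Both groups were primary root tips of wild-type M82 seedlings grown without sucrose on agar at 23 °C, with 16 h of light and 8 h of dark. Tips of about 3 cm were cut 7 days after sowing, 50 to 100 of them were combined into each sample, and each group had 3 libraries. The whole roots are labelled as having no treatment. The protoplasted roots were shaken for 2 h at 25 °C in Cellulase R10 (1.25%), Cellulase RS (1.25%), Macerozyme R10 (0.3%) and Pectolyase (0.12%) with 0.6 M mannitol, MES, KCl, CaCl2, bovine serum albumin and mercaptoethanol, then strained, pelleted and washed. No whole root is labelled as incubated without enzymes, and no oxygen level is recorded, so enzymes, medium and incubation time cannot be told apart.

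Plant cells that run short of oxygen slow mitochondrial respiration and rely on glycolysis, which needs a constant return of NAD+. Pyruvate decarboxylase turns pyruvate into acetaldehyde and alcohol dehydrogenase reduces acetaldehyde to ethanol, while lactate dehydrogenase reduces pyruvate to lactate, and both routes give NAD+ back. Class 1 haemoglobins bind oxygen very tightly and remove nitric oxide. In Arabidopsis, the group VII ERF proteins are broken down through their amino-terminal cysteine when oxygen is present and are stable when it is scarce, so that they can activate fermentation genes. The control lies in large part in the protein, which these libraries do not measure.

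Of the 8 genes tested, 5 were higher in protoplasts and 0 were lower. ADH2 and LDH stood furthest from 0, at 6.04-fold and 5.59-fold, followed by the haemoglobin gene at 2.56-fold and the ERF genes Solyc09g075420 and Solyc03g123500 at 2.53-fold and 1.76-fold. The PDC gene Solyc10g076510 and the ERF genes Solyc06g063070 and Solyc12g049560 did not pass the test. A gene was called when its p-value from edgeR's quasi-likelihood test, adjusted by the Benjamini-Hochberg method over all 15966 genes tested, was under 0.05. By that rule 17.0% of all genes tested were called higher and 18.7% lower, against which the 5 and 0 of 8 are to be read. Because the members were chosen with earlier results of these data known, these shares are a description and no test of the set. The groups did not overlap for the same 5 genes, which were higher in each protoplasted library than in any whole-root library, a pattern shown by 25.1% of all genes tested (25.6% were lower in the same sense). With the study's further threshold of a log2 fold change over 2, ADH2 and LDH remained, against 4.15% of all genes tested. The median log2 fold change was 1.08 over the 8 members and 0.02 over all genes tested.

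**Figure D1:**
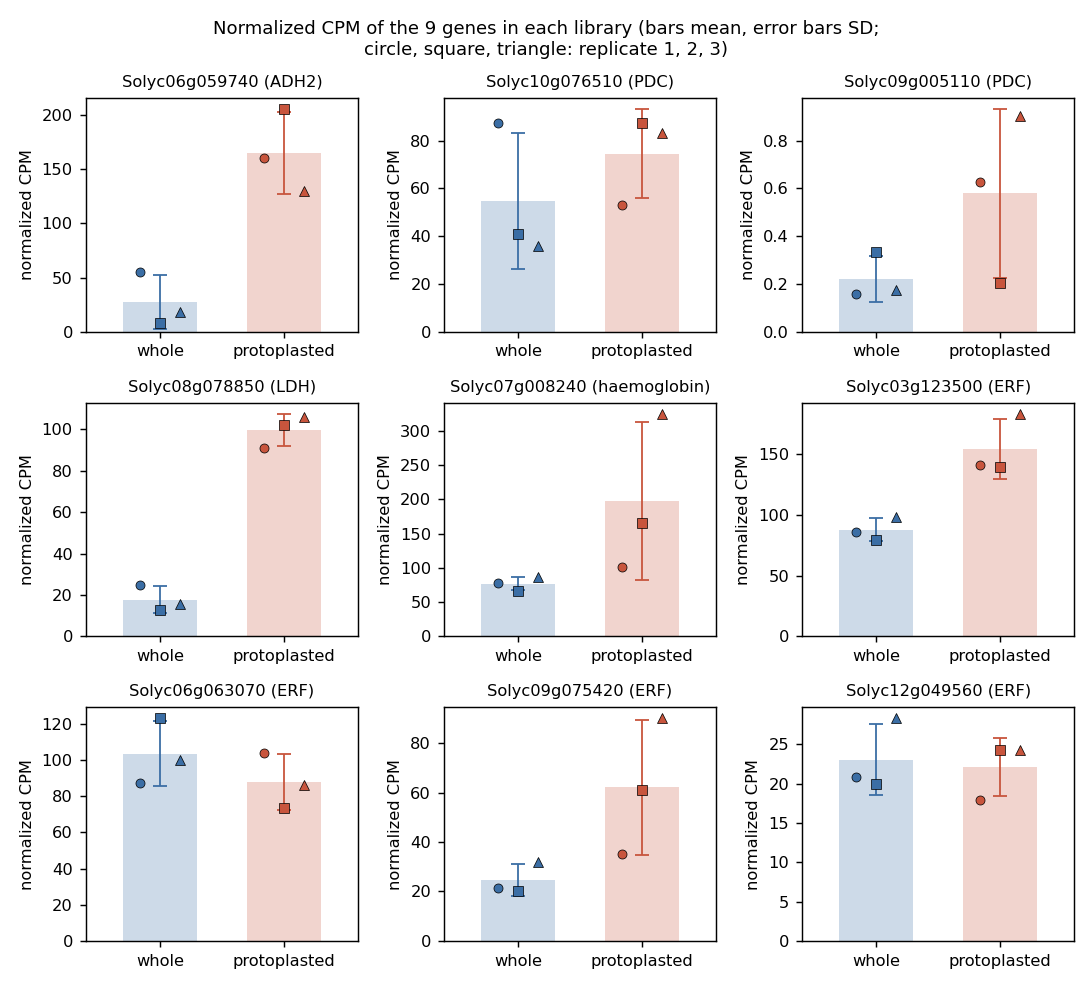
Normalized CPM (counts scaled to a common library total) of the 9 genes in the 3 whole-root (blue) and 3 protoplasted (red) libraries, with bars for the mean, error bars for the SD and a symbol for each replicate number. ADH2, LDH, haemoglobin, Solyc03g123500 and Solyc09g075420 have no red point at or below a blue one, and the other genes overlap.

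The libraries held between 5198513 and 5790082 estimated counts. The libraries tag transcripts at their 3′ ends, 1 tag a transcript, and the levels of different genes were set side by side without a correction for length. Levels are normalized CPM, the count in each library divided by its total after scaling by the trimmed mean of M-values (TMM). All 54 counts of the 9 genes were whole numbers, whereas 6.37% of the values of all genes with counts were not. Genes of the mature exodermis moved with the groups. Of 50 markers from the end of the exodermal trajectory, 49 were tested, 48 were lower in protoplasts and 0 higher. Over all genes tested, 18.7% were lower and 17.0% higher. The study had removed protoplast-induced genes from its single-cell data, so genes past its thresholds for being higher could not become markers. Because of the TMM scaling, summed normalized CPM are not exact shares of a library. Written in percent, the sum for the 50 markers was 0.932% to 2.54% in whole roots and 0.0443% to 0.106% in protoplasts. Of their defining genes, SlASFT had 3531 to 5464 counts in whole roots and 9 to 87 in protoplasts, and SlMYB92 had 116 to 191 and 2 to 3, so neither was at 0. The part of this shift in the results below was not tested. In bulk libraries, fewer cells of a type and less RNA in each cell cannot be told apart.

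ADH2, the enzyme of the last step to ethanol, had 347, 48 and 106 counts in whole-root replicates 1, 2 and 3 (55.5, 7.99 and 18.3 CPM). In protoplasts it had 769, 995 and 717 counts (160, 205 and 130 CPM). The lowest protoplasted library was above the highest whole-root library, and whole-root replicate 1 stood well above the other whole roots. Its mean thus went from 27.3 ± 25.0 CPM to 165 ± 37.6 CPM (SD, n = 3). The log2 fold change was 2.59 (standard error, SE, 0.60, 95% interval 1.22 to 3.97, edgeR adjusted p = 0.0112). Only 2.3% of the genes tested had a log2 fold change at or above that of ADH2. Set against the whole root with the same replicate number, the protoplasted library was higher by 1.53, 4.68 and 2.83 on the log2 scale.

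The size of the ADH2 difference depended most on whole-root replicate 1, which made it smaller. Without that library the fold was 12.5 in place of 6.04, with an adjusted p of 8.6e-04 in edgeR. Without whole-root replicate 2 the fold was 4.47 (adjusted p = 0.0199 in edgeR), and without whole-root replicate 3 it was 5.17 (0.0334). Without protoplasted replicate 2, the adjusted p in edgeR was 0.0530 and the log2 fold change 2.37, so that the call was lost at a fold of 5.17. Among whole roots the highest ADH2 level was 6.94 times the lowest. For the 5598 genes within 2-fold of its mean level in whole roots, the median of this ratio was 1.51, and 99.2% of them had a lower ratio. Among protoplasts the ratio of ADH2 was 1.58, against a median of 1.40 for 1696 genes of like level.

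Solyc10g076510, a gene for pyruvate decarboxylase, which commits pyruvate to the ethanol route, had 547, 246 and 208 counts in whole roots (87.4, 41.0 and 36.0 CPM). In protoplasts the counts were 255, 424 and 459 (53.2, 87.2 and 83.1 CPM). The groups overlapped, because whole-root replicate 1 was the highest of all 6 libraries and protoplasted replicate 1 the lowest of its group. The means were 54.8 ± 28.4 and 74.5 ± 18.6 CPM (SD, n = 3), with a log2 fold change of 0.44 (SE 0.37, 95% interval -0.39 to 1.27, edgeR adjusted p = 0.373). That interval holds no change and also a difference of more than 2-fold. By replicate number the log2 differences were -0.72, 1.09 and 1.21, which do not share a sign. Without whole-root replicate 1 the gene was called, at a log2 fold change of 0.95 and an adjusted p of 0.0333 in edgeR.

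The PDC gene Solyc09g005110 was barely read. It had 1, 2 and 1 counts in whole roots and 3, 1 and 5 counts in protoplasts, too few for the test, and no fold is given. A library without a count could hold a gene at up to 0.479 to 0.626 normalized CPM (3 counts, counting error only), so these levels lay near the limit of the depth. Reads of the PDC genes with a row thus came almost entirely from Solyc10g076510.

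LDH (Solyc08g078850), which makes lactate from pyruvate, had 156, 77 and 91 counts in whole roots (24.9, 12.8 and 15.7 CPM) and 435, 498 and 588 counts in protoplasts (90.8, 102 and 106 CPM). The protoplasted libraries lay close together and far above every whole root. The means were 17.8 ± 6.32 and 99.9 ± 8.15 CPM (SD, n = 3). Its log2 fold change was 2.48 (SE 0.28, 95% interval 1.84 to 3.13, edgeR adjusted p = 6.7e-04). This was the smallest adjusted p of the members, and LDH was the sole member still called at an adjusted p under 0.01, where 7.77% of all genes tested were called higher. The differences within replicate numbers were 1.86, 3.00 and 2.76 on the log2 scale. Its call held in each of the 15 alternative fits, in which the adjusted p reached at most 0.00757. In whole roots, replicate 1 held the highest level of LDH, as it did of ADH2 and Solyc10g076510.

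**Figure D2:**
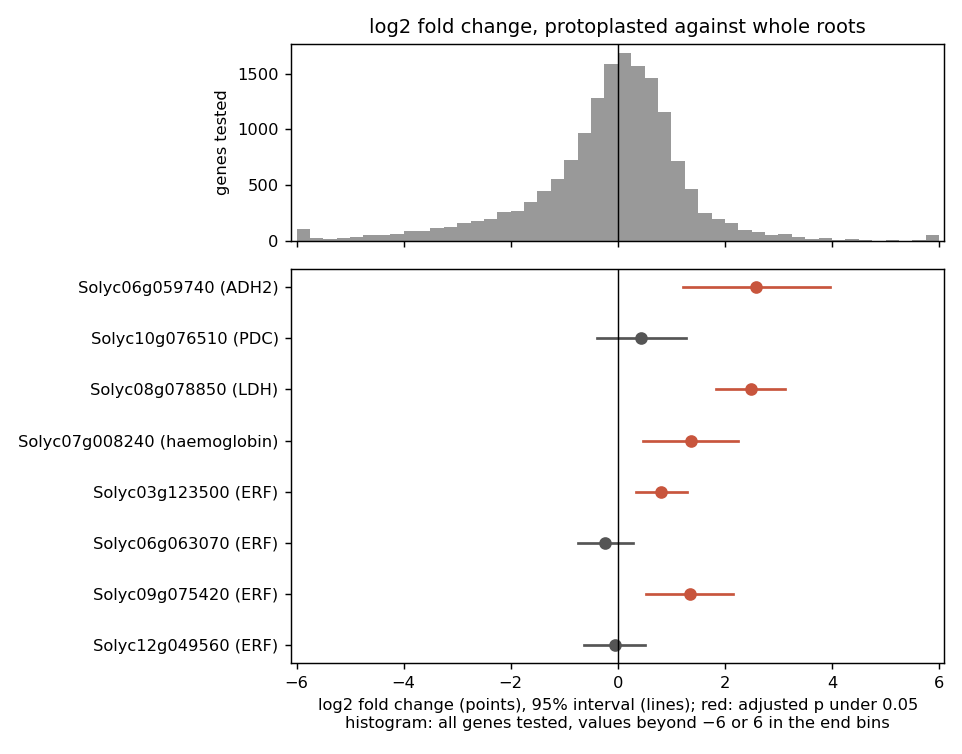
Log2 fold change between protoplasted and whole roots for all 15966 genes tested (histogram, number of genes in each bin) and for the 8 members (points, with 95% intervals as lines), on a shared axis. The points of ADH2 (2.59) and LDH (2.48) lie in the upper tail of the histogram, and the intervals of Solyc10g076510, Solyc06g063070 and Solyc12g049560 cross 0.

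Because the enzymes of fermentation act on the same carbon, their counts were also set against each other within each library, where scaling between libraries cancels. These ratios were chosen after the levels had been seen and were not tested. ADH2 had 0.634, 0.195 and 0.510 counts for each PDC count (Solyc10g076510) in whole-root replicates 1, 2 and 3, and 3.02, 2.35 and 1.56 in the protoplasted ones. Solyc10g076510 thus had more counts than ADH2 in all 3 whole roots, and the order was turned round in all 3 protoplasted libraries. The PDC gene Solyc02g077240 was not analysed, so these are not counts of all PDC transcripts. LDH behaved alike, with 0.285, 0.313 and 0.438 counts for each PDC count in whole roots and 1.71, 1.17 and 1.28 in protoplasts. ADH2 against LDH gave 2.22, 0.623 and 1.16 in whole roots and 1.77, 2.00 and 1.22 in protoplasts, and here the groups overlapped. The balance of ADH2 and LDH, the last enzymes of the 2 routes, was therefore not separated between the groups.

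**Figure D3:**
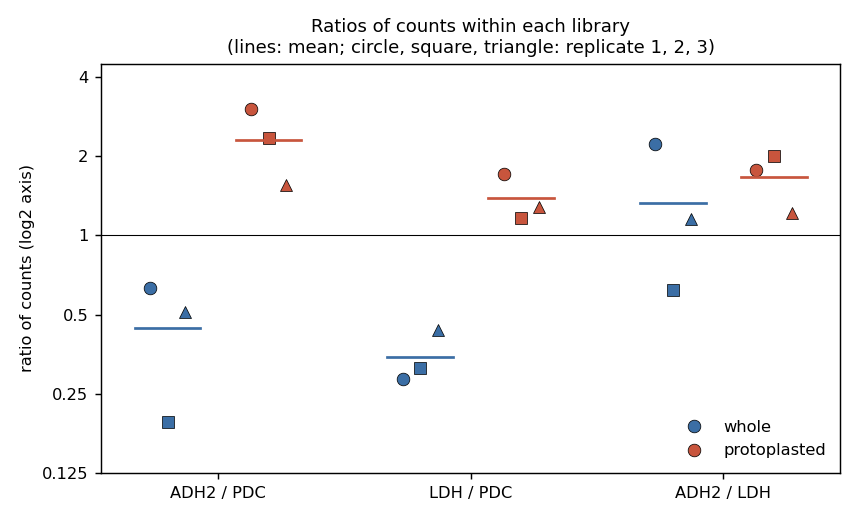
Ratio of counts of ADH2 to PDC (Solyc10g076510), LDH to PDC and ADH2 to LDH in each library, on a log2 axis, with lines for the group means and a symbol for each replicate number. Whole roots (blue) are below 1 and protoplasted roots (red) above 1 for both ratios to PDC, and the groups overlap for ADH2 to LDH.

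The class 1 haemoglobin gene Solyc07g008240 had 489, 400 and 502 counts in whole roots (78.2, 66.6 and 86.8 CPM). The protoplasted libraries had 487, 807 and 1793 counts (102, 166 and 325 CPM). All 3 were above the whole roots, though replicate 1 by little, and replicate 3 held 3.19 times the level of replicate 1. The means were 77.2 ± 10.1 and 197 ± 115 CPM (SD, n = 3), and the log2 fold change was 1.36 (SE 0.39, 95% interval 0.47 to 2.24, edgeR adjusted p = 0.0264). Within replicate numbers the differences were 0.38, 1.32 and 1.90 on the log2 scale. In protoplasts the spread of this gene was wide for its level, with 96.4% of 1453 genes within 2-fold of its mean varying less. Without protoplasted replicate 3 the fold was 1.69 and the adjusted p in edgeR 0.0771. The call was also lost without whole-root replicate 2 (0.0945) or protoplasted replicate 2 (0.0675).

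Of the 4 group VII ERF genes, 2 were called, both higher, where 17.0% of all genes tested were called higher. Solyc09g075420 and Solyc03g123500 were higher in protoplasts, and Solyc06g063070 and Solyc12g049560 were not called in either direction. The roles known for single members of the group come from Arabidopsis, where some members are made all the time and others are themselves induced by low oxygen, and the files do not pair the tomato genes with them.

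Solyc03g123500 had 535, 478 and 569 counts in whole roots (85.5, 79.6 and 98.3 CPM) and 676, 675 and 1012 counts in protoplasts (141, 139 and 183 CPM). The groups were apart, with protoplasted replicate 3 the highest. Its means were 87.8 ± 9.58 and 154 ± 25.0 CPM (SD, n = 3), and its log2 fold change was 0.81 (SE 0.21, 95% interval 0.34 to 1.29, edgeR adjusted p = 0.0172). The differences within replicate numbers were even, at 0.72, 0.80 and 0.90 on the log2 scale. Its call was nonetheless lost when a single library was left out, whole-root replicate 2 (adjusted p = 0.0752 in edgeR), protoplasted replicate 2 (0.0520) or protoplasted replicate 3 (0.0679).

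Solyc09g075420 was the ERF gene with the largest fold. It had 134, 121 and 186 counts in whole roots (21.4, 20.2 and 32.1 CPM) and 169, 296 and 497 counts in protoplasts (35.3, 60.9 and 90.0 CPM). The lowest protoplasted library was only just above the highest whole root, and replicate 3 was the highest library of either group. The means were 24.6 ± 6.59 and 62.1 ± 27.4 CPM (SD, n = 3), and the log2 fold change was 1.34 (SE 0.36, 95% interval 0.52 to 2.15, edgeR adjusted p = 0.0199). By replicate number the differences were 0.72, 1.59 and 1.49 on the log2 scale. The call was lost without whole-root replicate 2 (adjusted p = 0.0789 in edgeR), protoplasted replicate 2 (0.0694) or protoplasted replicate 3 (0.0654, with a fold of 1.91 in place of 2.53).

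Solyc06g063070, the most abundant member in whole roots, had 547, 737 and 579 counts there (87.4, 123 and 100 CPM) and 500, 358 and 475 counts in protoplasts (104, 73.6 and 86.0 CPM). The groups overlapped, and the means were 103 ± 17.9 and 88.0 ± 15.5 CPM (SD, n = 3). The log2 fold change was -0.23 (SE 0.23, 95% interval -0.75 to 0.28, edgeR adjusted p = 0.453). Within replicate numbers it differed by 0.26, -0.74 and -0.22 on the log2 scale. Solyc12g049560, the least abundant of the ERF genes in both groups, had 131, 120 and 164 counts in whole roots (20.9, 20.0 and 28.3 CPM) and 86, 118 and 134 in protoplasts (17.9, 24.3 and 24.3 CPM). Its libraries overlapped throughout, with means of 23.1 ± 4.58 and 22.2 ± 3.65 CPM (SD, n = 3) and a log2 fold change of -0.06 (SE 0.25, 95% interval -0.63 to 0.51, edgeR adjusted p = 0.879). The differences between ERF genes were not themselves tested. The interval of Solyc12g049560 overlaps that of Solyc03g123500 and ends just below that of Solyc09g075420 (0.51 against 0.52). The interval of Solyc06g063070 ends at 0.28, below those of Solyc03g123500 (from 0.34) and Solyc09g075420 (from 0.52).

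The make-up of the ERF transcripts is given as shares, without a test. Solyc03g123500 took 36.8% ± 3.58 (SD, n = 3) of the counts of the 4 ERF genes in whole roots and 47.2% ± 0.567 in protoplasts. Solyc06g063070 took 43.3% ± 6.42 and 27.4% ± 6.66, so that the leading gene was a different one in the 2 groups. It held the larger count of the pair in all 3 whole roots, but only just in replicates 1 (547 against 535) and 3 (579 against 569), and Solyc03g123500 held it in all 3 protoplasted libraries. The share of Solyc09g075420 ran from 8.31% to 12.4% in whole roots and from 11.8% to 23.5% in protoplasts, and these ranges overlapped. The share of Solyc12g049560 ran from 8.24% to 10.9% and from 6.01% to 8.15%, which did not overlap, although its own level was not called. A share falls whenever another gene of the group rises, so it says nothing of a loss of transcripts. Summed over the 4 genes, the level was 239 ± 22.0 CPM in whole roots and 327 ± 49.3 CPM in protoplasts (SD, n = 3).

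**Figure D4:**
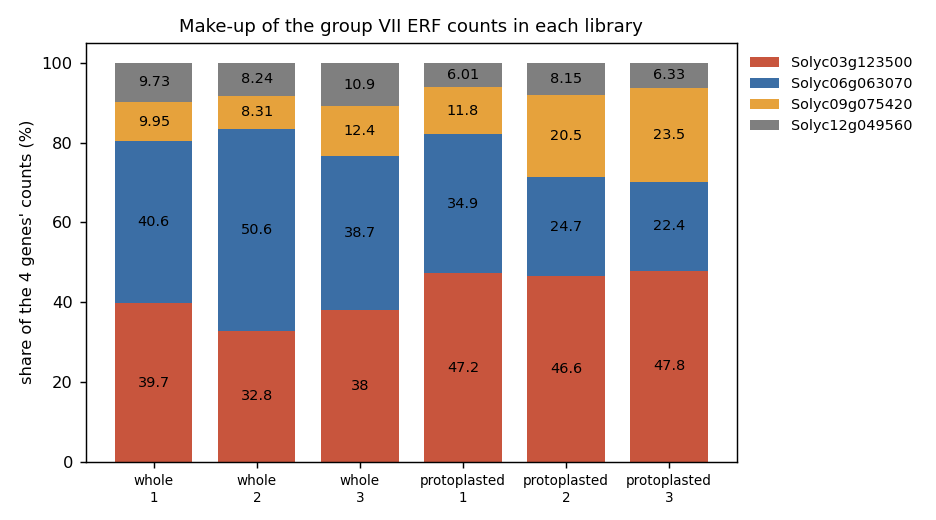
Share of each group VII ERF gene in the summed counts of the 4 genes, in percent, for each of the 6 libraries (stacked bars, each adding up to the whole). Solyc06g063070 (blue) takes 38.7% to 50.6% in whole roots and 22.4% to 34.9% in protoplasts, and Solyc03g123500 (red) takes 32.8% to 39.7% and 46.6% to 47.8%.

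The order of the members by level differed between the groups. In whole roots it ran from Solyc06g063070 (103 CPM) through Solyc03g123500 (87.8), haemoglobin (77.2), Solyc10g076510 (54.8), ADH2 (27.3), Solyc09g075420 (24.6) and Solyc12g049560 (23.1) to LDH (17.8 CPM). Each neighbour in that order overlapped the next in its library range, and only the last step, to Solyc09g005110 at 0.222 CPM, was clear of the spread. In protoplasts the haemoglobin gene (197 CPM), ADH2 (165 CPM) and Solyc03g123500 (154 CPM) led, each overlapping the next. LDH (99.9 CPM), Solyc06g063070 (88.0), Solyc10g076510 (74.5) and Solyc09g075420 (62.1) came after and again overlapped from neighbour to neighbour. The range of LDH lay below that of Solyc03g123500 but overlapped that of haemoglobin, which had 102 CPM in replicate 1. Solyc12g049560 (22.2 CPM) and Solyc09g005110 (0.579 CPM) were each apart from the gene before. ADH2 had more CPM than 63.6% of the genes tested in whole roots and than 92.6% in protoplasts, and for LDH these values were 52.0% and 87.9%.

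The replicates differed in which members were high. Among whole roots, ADH2, Solyc10g076510 and LDH were highest in replicate 1, whereas haemoglobin, Solyc03g123500, Solyc09g075420 and Solyc12g049560 were highest in replicate 3. The summed level of the exodermal markers was 0.932%, 1.28% and 2.54% in whole-root replicates 1, 2 and 3, and a link to the members was not tested. Among protoplasts, haemoglobin, Solyc03g123500, Solyc09g075420 and LDH were highest in replicate 3. The summed level of the exodermal markers was also highest there (0.106%, against 0.0443% and 0.0534% in replicates 1 and 2). ADH2 was lowest in that library. Over the 6 libraries, the log2 CPM of ADH2 and LDH had a Pearson r of 0.95, and haemoglobin and Solyc09g075420 had 0.97. These values describe 6 points that fall into 2 groups and share their scaling, and no test was made. With whole-root replicate 2, protoplasted replicate 2 or protoplasted replicate 3 left out, 2, 1 and 2 members were called higher, against 10.5%, 9.14% and 13.2% of all genes tested in those fits.

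**Figure D5:**
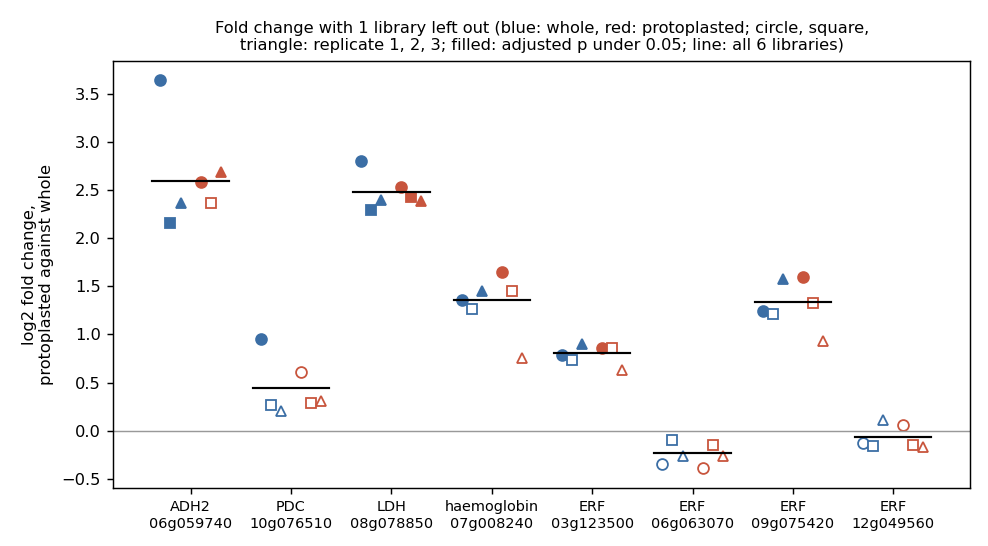
Log2 fold change of each member with 1 library left out (symbols, blue for a whole root and red for a protoplasted library left out, filled where the adjusted p was under 0.05) and with all 6 libraries (black lines). LDH keeps filled symbols throughout (2.29 to 2.80), ADH2 reaches 3.64 without whole-root replicate 1, and haemoglobin and the ERF genes Solyc03g123500 and Solyc09g075420 each have 3 open symbols.

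Other genes whose pattern over the 6 libraries was nearest to that of ADH2, by the Pearson correlation of log2 CPM, were Solyc07g005110 (r = 0.9955), Solyc00g021630 (0.9948) and Solyc02g067560 (0.9942). The nearest to Solyc03g123500 were Solyc08g078900 (0.9987), Solyc12g013580 (0.9971) and Solyc03g007110 (0.9962). They are the top 3 of 15966 genes in each case, given as a description over 6 libraries. A correlation ignores the size of a difference. The log2 fold changes were 2.81, 1.85 and 1.89, against 2.59 for ADH2. For the other 3 genes they were 1.92, 1.72 and 0.61, against 0.81 for Solyc03g123500. Solyc02g067560 averaged only 0.710 CPM in whole roots, near the limit of the depth.

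Enzymes around the same step of metabolism and genes described as ethylene-responsive transcription factors were taken from the gene descriptions in the study's own lists. Those lists had been selected for exodermal or suberin-related expression and are therefore no sample of the pathway. Of the 8 genes so taken, 7 were tested, 5 were lower in protoplasts, 1 was higher and 1 was not called. Over all genes tested, 18.7% were lower and 17.0% higher. The pyruvate dehydrogenase kinase gene Solyc01g057210, whose product shuts the entry of pyruvate into the mitochondrial cycle, had 360, 358 and 383 counts in whole roots and 80, 110 and 129 in protoplasts. It fell by 1.55 on the log2 scale (SE 0.22, edgeR adjusted p = 0.00144). Pyruvate dehydrogenase itself (Solyc04g008590) had 854, 804 and 821 counts against 790, 664 and 545, with a log2 fold change of -0.04 (95% interval -0.57 to 0.48, edgeR adjusted p = 0.902).

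The aldehyde dehydrogenase gene Solyc06g060250, of a family that oxidizes aldehydes to acids, fell by 1.04 on the log2 scale, from 89.6 ± 20.8 to 43.6 ± 5.84 CPM (SD, n = 3, edgeR adjusted p = 0.0103). Glycerol-3-phosphate dehydrogenase (Solyc04g016330) fell by 4.03 on the log2 scale, from 45.9 ± 13.1 to 2.76 ± 1.41 CPM (SD, n = 3, adjusted p = 4.6e-04 in edgeR). Solyc05g046180, a low-quality gene model described as alcohol dehydrogenase 2, had 112, 45 and 188 counts in whole roots and 0, 0 and 2 in protoplasts, the opposite of ADH2 (adjusted p = 0.00109 in edgeR). Of the genes described there as ethylene-responsive transcription factors, Solyc04g071770 was higher. It had 5, 11 and 11 counts in whole roots and 16, 18 and 37 in protoplasts (adjusted p = 0.0399 in edgeR). Solyc03g117720, described as AP2-like, was lower, with 64, 123 and 132 counts against 19, 18 and 8 (adjusted p = 0.00408 in edgeR). Cytosolic fructose-1,6-bisphosphatase (Solyc04g071340) had 27, 9 and 26 counts in whole roots and 2 in each protoplasted library and was not tested. The genes of these lists that fell moved in the same direction as the exodermal markers given above. As the lists were themselves selected for exodermal or suberin-related expression, this is no separate result, and the part of that shift was not tested.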

How the data were processed

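RNA-seq libraries of whole and protoplasted tomato root tips, 3 of each, were compared. Groups and replicates came from the sample labels. The libraries were made with a 3′ kit (QuantSeq FWD). Per the labels and methods, the authors trimmed reads with Trim Galore 0.6.6, assigned read 1 to ITAG4.1 transcripts by kallisto 0.46.2 pseudo-alignment and deposited estimated counts for each gene model, without normalization. No molecular identifiers are described. The methods also state that sequences were pooled before trimming, but the table has 1 column for each library. A 3′ count depends on whether the gene model reaches the true 3′ end, and reads shared by similar genes are divided by kallisto, which can shift the counts of close paralogues.

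The estimated counts were rounded and genes filtered with filterByExpr (minimum count 10, minimum total 15), which left 15966. TMM normalization and the quasi-likelihood test were run in edgeR 4.0.16 (R 4.3.3), without a replicate block, with Benjamini-Hochberg adjustment over all genes tested. Standard errors were derived from the F statistic, and intervals are at 95%. The labels do not say that replicates came from separate cultures, so p-values measure only the spread between these samples. Replicate pairs within a group differed by more than counting noise (chi-square divided by its degrees of freedom, 14.6 or more). The replicate numbers were checked by the correlation, over all genes tested, of each library's deviation from its group mean. Libraries with the same number gave 0.429, 0.114 and 0.538, and those with different numbers gave -0.472 to 0.0265. The numbers were therefore taken to pair the samples, although no source names what they share.

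Alternatives were DESeq2 1.42.0, limma-voom (limma 3.58.1), other normalizations, filters and thresholds, unrounded counts, a replicate block and leaving out each library. The test was checked on simulated counts. All 10 members were named. The other genes named were the 3 nearest to the leading enzyme and to the leading ERF gene in the list by correlation, and 8 genes described in the study's tables. The members and lists were chosen with earlier results of these data known. Of the identifiers, 0 were found in the RefSeq table (assembly SLM_r2.1), so member names follow the list of loci and no sequences were used.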

Additional observations from a re-analysis of the deposited data

How the results depend on the processing

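Each of the 8 members was fitted in 15 alternatives, 120 values in all. Of these, 107 kept their direction and their side of the threshold, 10 lost the call, 1 gained it and 2 changed sign. All 13 exceptions came from fits that left out a single library, which have fewer samples, and whether another property of those libraries adds to it was not tested. The signs that changed were those of Solyc12g049560, at 0.11 without whole-root replicate 3 and 0.06 without protoplasted replicate 1, against -0.06 with all libraries. With a library left out its values ran from -0.17 to 0.11, and it was not called in any fit. Across the fits that left out a library, the number of members called higher ranged from 1 to 6, against 5 with all libraries, the number called lower was 0 throughout, and the number past a log2 fold change of 2 ranged from 1 to 2. The number called higher was 2 without whole-root replicate 2, 1 without protoplasted replicate 2 and 2 without protoplasted replicate 3. The same fits called 10.5%, 9.14% and 13.2% of all genes tested higher, against 17.0% with all libraries. At an adjusted p under 0.01, 1 member and 7.77% of all genes were higher. With the replicate block in edgeR, 5 members were higher and 0 lower, and the block changed no call of a member. The adjusted p of these 5 in that edgeR fit ran from 5.5e-05 (LDH) to 0.00467 (haemoglobin). The share of all genes called was then 25.0% higher and 24.3% lower. The fits that left out a library had no block. With library size only, the median over all genes was -0.14 on the log2 scale in place of 0.02, and 1887 genes were higher and 3447 lower. No member changed its call or sign under another normalization, filter or tool, unrounded counts or the block. At this depth Solyc09g005110 was too thinly read to compare, and with 3 libraries a group the intervals of the members that were not called hold differences of up to 2.42-fold.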
